A study of Sus scrofa with 6 samples.

Results

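Ribosome biogenesis and nucleolar genes were followed in cultured pig granulosa cells exposed to heat. The set has 36 members, chosen by function and by symbol: subunits of RNA polymerase I, proteins of small nucleolar ribonucleoproteins (snoRNPs), nucleolar scaffold proteins, and assembly factors of the small and the large ribosomal subunit. A row of the count table was found for 33 of them among 35670 gene identifiers, and all 33 had enough reads to be tested, out of 14242 tested genes. NHP2, UTP14A and DDX10 matched no identifier by symbol and were not analysed here. Granulosa cells, the somatic cells lining the ovarian follicle, were aspirated from small healthy follicles of pigs (Sus scrofa), grown in medium with serum and split between a control group at 37 °C and a heat group at 42 °C for 6 h, with 3 libraries each. No genotype, transgene or further agent is given for either group. The labels call the libraries biological replicates but name no animal or culture, so p-values measure only the spread between these samples, which may be technical.

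Ribosomes are assembled in the nucleolus. RNA polymerase I transcribes a long precursor of ribosomal RNA, snoRNPs modify it, and a large particle called the small subunit processome folds and cleaves it, after which separate sets of helicases, GTPases and scaffold proteins mature the small (40S) and the large (60S) subunit. Transcription of many of these factors is driven by MYC, and nucleoli are known to reorganise when cells are heated.

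Libraries held between 18711440 and 29606378 counts. They were not equally alike within groups. Control 2 and control 3 correlated across tested genes at 0.990 and heat 1 and heat 2 at 0.991 (Pearson, log2 CPM), whereas control 1 correlated with its own group at 0.901 and 0.905 and heat 3 with its own group at 0.916 and 0.909. Control 1 and heat 3 correlated with each other at 0.920. Over the 33 members, heat 3 correlated with control 1, 2 and 3 at 0.960, 0.938 and 0.943. With heat 1 and 2 it correlated at 0.841 and 0.801. CPM stands for counts per 1e6 reads of a library, here with TMM factors. HSP70.2, an inducible heat shock gene that checks the labels, stood at 130.2, 115 and 141 CPM in control 1, 2 and 3 and at 5896, 5772.5 and 4823 CPM in heat 1, 2 and 3. Among granulosa markers, CYP11A1, INHBA, KITLG, GATA4 and CDH2 had between 6570 and 61073 reads each, but FSHR had 72 reads over all 6 libraries, STAR 79, AMH 17 and INHA 10. HSD17B1 had 21 and AMHR2 19, and CYP19A1, FOXL2 and HSD3B1 matched no row. Summed, 15 granulosa markers ranged from 547 to 1507.5 CPM in controls and from 967 to 1246 CPM in heat. Smooth muscle markers summed to between 9986 and 10255 CPM in controls and between 6731 and 14707 CPM in heat. The summed level of 9 stromal markers ranged from 6701 to 59121 CPM in controls and from 28086 to 87933 CPM in heat, with the highest control value in control 1 and the lowest heat value in heat 3. Leukocyte markers summed to between 3.34 and 71.2 CPM in controls and between 1.31 and 4.44 CPM in heat, with CD3E at 3 reads or fewer in all. Tested were 10 of 18 granulosa, 9 of 10 stromal, 6 of 6 smooth muscle, 2 of 7 theca and 2 of 7 endothelial markers. None of these passed the test. Of 10 leukocyte markers 3 were tested, and 1 was lower in heat. Of 7 surface epithelium markers 3 were tested, and 2 were higher in heat. Of 6 oocyte markers 1 was tested, and it was higher in heat. Markers not tested had too few reads or matched no row. Mitochondrial protein genes took 12.4 to 25.3% of counts in controls and 5.04 to 7.94% in heat. Their part and the part of other cell types in the results below was not tested. In bulk RNA, fewer cells of a type and less RNA per cell cannot be told apart.

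No member passed the test for a difference between heat and control. In edgeR's quasi-likelihood test, with p-values adjusted over all tested genes and called below 0.05, 0 of 33 were called, against 11.0% of all tested genes (6.71% higher and 4.32% lower in heat). The lowest adjusted p was 0.0527, for LTV1. Without adjustment, 16 of 33 members (48.5%) and 33.9% of all tested genes had a p below 0.05. DESeq2 called 2 members higher and 6 lower, against 12.1% and 9.42% of the genes it adjusted, and limma-voom called 1 higher and 1 lower (6.06% of members, against 11.0% of all genes). The members had no common direction. Fold changes are given as log2 of heat over control, and were above 0 in 16 members (48.5%, against 52.1% of all tested genes), with a median of -0.04 (0.05 over all tested genes) and a range from -1.41 to 1.64. Of all calls in the series 60.9% were higher in heat, and 79.2% when libraries were scaled by their totals alone, a setting that moved the median of all tested genes to 0.17.

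**Figure D1:**
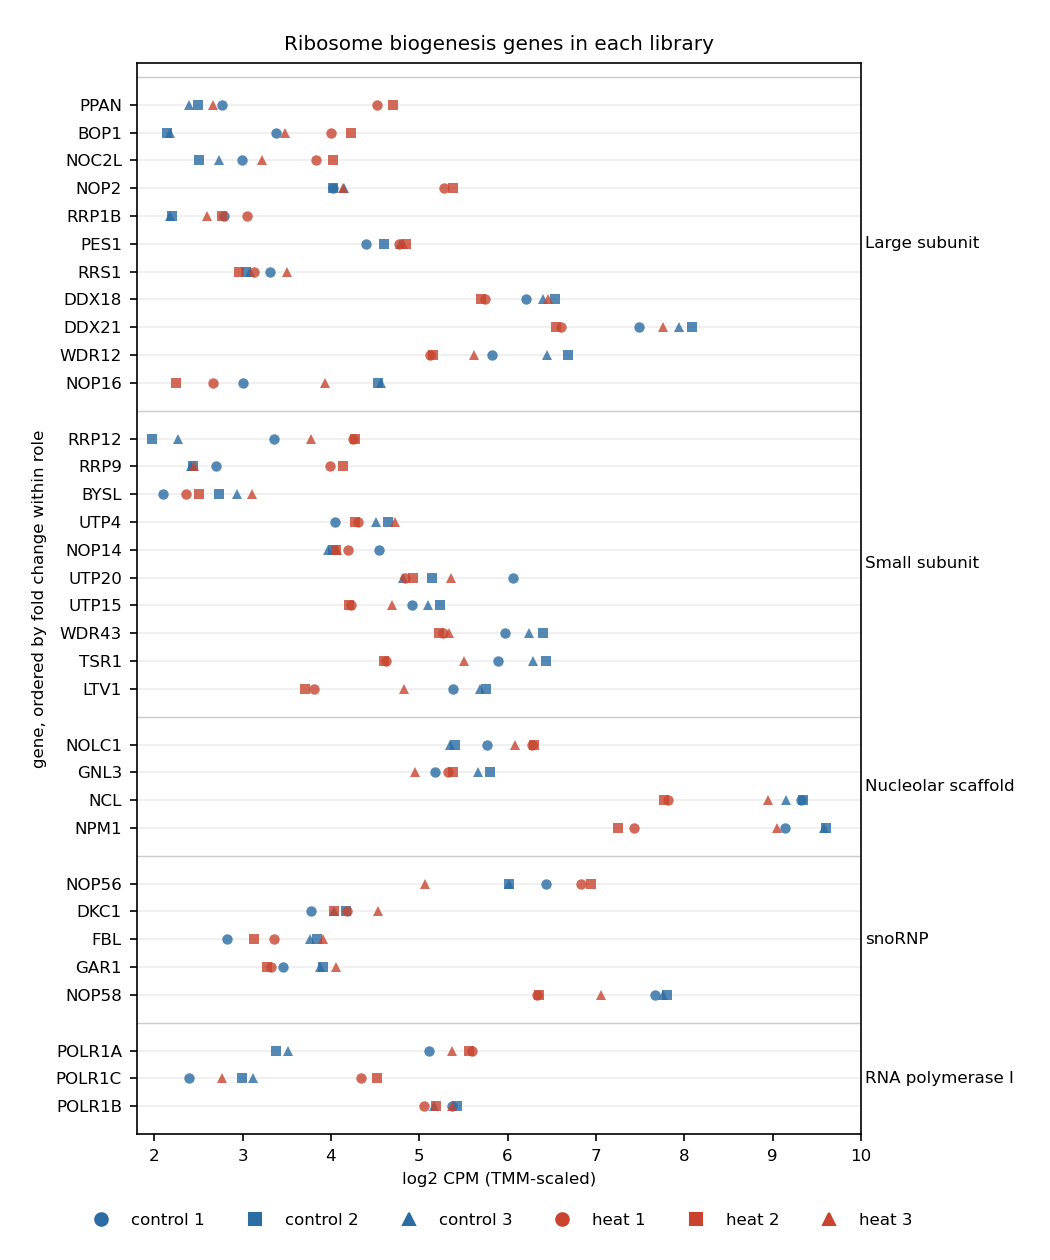
Level of each of the 33 measured genes in each library, as log2 of TMM-scaled CPM (horizontal axis), grouped by role and ordered by fold change within a role. Blue symbols are controls, red symbols heat libraries, and the shape gives the replicate number; heat libraries lie below every control for 8 genes (such as LTV1 and NOP58) and above every control for 5 (such as RRP12 and NOLC1), and heat 3 (red triangle) often stands apart from heat 1 and 2.

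In 13 members the groups did not overlap, as the plot of levels by library shows. Every heat library was below every control for LTV1, NPM1, TSR1, NOP58, WDR12, NCL, WDR43 and UTP15, which are 24.2% of the members against 16.8% of all tested genes. Every heat library was above every control for RRP12, POLR1A, BOP1, NOC2L and NOLC1, 15.2% against 20.9%. Scaled by library totals alone, 9 members lay above and 3 below (LTV1, NOP58 and WDR43), against 26.6% and 10.6% of all genes. The same 8 lay below with RLE and with upper-quartile factors (19.1% and 17.5% of all genes), and 4 and 5 lay above (18.9% and 20.1%). Of the other 20 members, 14 had a log2 fold change between -0.37 and 0.40, with edgeR adjusted p-values from 0.419 to 0.958.

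None of the 3 measured subunits of RNA polymerase I passed the test. POLR1A, the largest subunit, which carries much of the catalytic centre, stood at 34.7, 10.4 and 11.5 CPM in control 1, 2 and 3 and at 48.2, 47.1 and 41.3 CPM in heat 1, 2 and 3. All heat libraries were above the controls, but control 1 was 3.17 times the mean of the other controls. Its log2 fold change was 1.28 ± 0.49 (SE, n = 3 per group; edgeR adjusted p = 0.117), and it was called without control 1, at 2.04 ± 0.25 (edgeR adjusted p = 0.00697). POLR1B, the second-largest subunit and the other side of the catalytic cleft, stood at 41.5, 43.0 and 35.8 CPM in controls and at 33.2, 36.6 and 41.4 CPM in heat. These ranges overlapped almost entirely, with a log2 fold change of -0.11 ± 0.27. POLR1C, which RNA polymerase III also uses, was at 5.27, 7.99 and 8.68 CPM in controls and at 20.2, 23.0 and 6.78 CPM in heat. Heat 1 and 2 were above every control and heat 3 lay within the control range (1.18 ± 0.48, edgeR adjusted p = 0.131). Without heat 3 it was called.

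Box C/D snoRNPs carry out ribose methylation of ribosomal RNA and have FBL as the methyltransferase and NOP56 and NOP58 as a pair of related core proteins. NOP58 stood at 203, 224 and 217 CPM in control 1, 2 and 3 and at 80.5, 82.0 and 133 CPM in heat 1, 2 and 3. Every heat library was below the controls, whose spread was small, and heat 3 was the nearest to them (log2 fold change -1.12 ± 0.33, SE, n = 3 per group; edgeR adjusted p = 0.0626). NOP56, its partner, went differently, with 86.3, 64.6 and 64.8 CPM in controls and 114, 124 and 33.6 CPM in heat. Heat 1 and 2 were the highest of all libraries and heat 3 the lowest, and the fold change was 0.33 ± 0.49 (edgeR adjusted p = 0.651). FBL was at 7.08, 14.4 and 13.6 CPM in controls and at 10.2, 8.79 and 15.1 CPM in heat, with overlapping groups and a fold change of -0.04 ± 0.38, whose sign turned with 2 of the scaling and filter settings. Box H/ACA snoRNPs convert uridine to pseudouridine. Their catalytic subunit DKC1 (16.0 ± 2.20 against 19.2 ± 3.45 CPM, mean ± SD, n = 3) and the small core protein GAR1 (13.6 ± 2.22 against 12.1 ± 3.92 CPM) had overlapping groups.

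Among the scaffold proteins, NCL and NPM1 took about as many reads as all other members together in the controls. NPM1, nucleophosmin, a histone chaperone that forms the outer nucleolar layer, stood at 566, 777 and 766 CPM in control 1, 2 and 3 and at 173, 152 and 528 CPM in heat 1, 2 and 3. NCL, nucleolin, which binds nascent ribosomal RNA, stood at 638, 648 and 569 CPM in controls and at 226, 218 and 493 CPM in heat. For both genes heat 3 lay just below the lowest control and well above heat 1 and 2, by 3.25 times for NPM1 and 2.22 times for NCL. The log2 fold changes were -1.31 ± 0.55 for NPM1 and -0.99 ± 0.43 for NCL (SE, n = 3 per group; edgeR adjusted p = 0.138 and 0.150), and without heat 3 both were called, at -2.13 ± 0.30 and -1.50 ± 0.26. Together they took between 49.8 and 50.4% of all member reads in the controls, but 28.9% in heat 1, 27.0% in heat 2 and 47.7% in heat 3. The share of all counts taken by the 33 genes was lowest in heat 1, at 0.135% (95% Wilson interval 0.133 to 0.136%), and highest in control 2, at 0.287% (0.285 to 0.290%); these intervals cover counting error only. In the same libraries the median of 51 ribosomal protein genes lay between 6.23 and 6.33 on the log2 CPM scale for control 1, heat 1 and heat 2 but between 7.93 and 8.10 for control 2, control 3 and heat 3, and its part in these shares was not tested. Processed copies of NPM1 occur in mammalian genomes, and how multiply mapping reads were counted was not stated, so this count is uncertain.

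NOLC1, a chaperone of snoRNPs that shuttles between nucleolus and cytoplasm, had a fold change above 0. It stood at 54.5, 42.4 and 40.7 CPM in control 1, 2 and 3 and at 77.2, 78.9 and 67.6 CPM in heat 1, 2 and 3, so every heat library was above every control by a modest amount (0.70 ± 0.28, edgeR adjusted p = 0.122). GNL3, nucleostemin, a GTPase of large subunit assembly, was at 47.5 ± 10.1 CPM in controls and 37.5 ± 5.83 CPM in heat (SD, n = 3), with overlapping groups.

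None of the 10 small subunit factors passed the test, and 5 had groups that did not overlap. Every heat library was below every control in 4 and above in 1, against 16.8% and 20.9% of all tested genes. LTV1, an assembly factor that leaves the 40S particle late, stood at 41.8, 53.9 and 51.7 CPM in control 1, 2 and 3 and at 14.1, 13.0 and 28.3 CPM in heat 1, 2 and 3. All heat values were below the lowest control, and the fold change of -1.41 ± 0.38 came closest to the threshold (edgeR adjusted p = 0.0527). TSR1, a GTPase-like factor of 40S maturation, followed the same order, with 59.2, 86.5 and 78.2 CPM in controls and 24.7, 24.4 and 45.5 CPM in heat (-1.24 ± 0.36, edgeR adjusted p = 0.0605). WDR43, a subunit of the complex that joins the nascent ribosomal RNA first, stood at 63.0, 84.5 and 75.8 CPM in controls and at 38.6, 37.4 and 40.3 CPM in heat. For WDR43, unlike LTV1 and TSR1, heat 3 was level with the other heat libraries, and the fold change of WDR43 was -0.94 ± 0.27 (edgeR adjusted p = 0.0606). UTP15, of the same complex, stood at 30.2, 37.7 and 34.2 CPM in controls and at 18.8, 18.5 and 25.9 CPM in heat, again without overlap. UTP4, the third member of that complex in the set, overlapped between groups, at 21.5 ± 4.45 against 21.9 ± 3.92 CPM (SD, n = 3).

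RRP12, which helps to export and mature the 40S precursor, had a fold change above 0. It stood at 10.2, 3.93 and 4.81 CPM in control 1, 2 and 3 and at 19.1, 19.4 and 13.7 CPM in heat 1, 2 and 3. Control 1 was 2.34 times the mean of the other controls and still below heat 3 (1.46 ± 0.42, edgeR adjusted p = 0.0609). RRP9, a protein specific to the U3 snoRNP that guides the first cleavages, was at 6.48, 5.41 and 5.36 CPM in controls and at 15.9, 17.5 and 5.47 CPM in heat. Heat 1 and 2 were far above every control, and heat 3 was within their range. The processome proteins NOP14 and UTP20 and the 40S factor BYSL overlapped between groups, at 18.4 ± 4.29 against 17.2 ± 0.914, 43.3 ± 20.5 against 33.4 ± 6.62 and 6.20 ± 1.75 against 6.47 ± 1.86 CPM (SD, n = 3). For UTP20 the spread of the controls came from control 1, which at 66.6 CPM was 2.11 times the mean of the other controls.

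None of the 11 large subunit factors passed the test, and the groups overlapped in 8 of them. Every heat library was below every control in 1 and above in 2, against 16.8% and 20.9% of all tested genes. PES1, BOP1 and WDR12 form the PeBoW complex, which is needed to process the ribosomal RNA of the 60S subunit. WDR12 stood at 56.8, 103.0 and 86.9 CPM in control 1, 2 and 3 and at 34.8, 35.6 and 49.3 CPM in heat 1, 2 and 3, all below the lowest control (-1.04 ± 0.34, edgeR adjusted p = 0.0761). BOP1 stood at 10.4, 4.41 and 4.51 CPM in controls and at 16.0, 18.7 and 11.12 CPM in heat, where heat 3 exceeded control 1 by little (1.25 ± 0.43, edgeR adjusted p = 0.0912), and with RLE size factors the groups overlapped. PES1 was nearly level, at 21.1, 24.2 and 27.5 CPM in controls and 27.4, 28.8 and 28.2 CPM in heat (0.21 ± 0.27).

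PPAN, a factor of early 60S assembly, had the largest fold change of the set, at 1.64 ± 0.52 (edgeR adjusted p = 0.0736). It stood at 6.81, 5.63 and 5.26 CPM in control 1, 2 and 3 and at 22.9, 26.1 and 6.33 CPM in heat 1, 2 and 3, so the difference came from heat 1 and 2 alone. NOP2, which methylates cytosine in large subunit RNA, showed the same form, with 16.3, 16.3 and 17.7 CPM in controls and 38.7, 41.8 and 17.7 CPM in heat. NOC2L, which acts in 60S transport through the nucleus, was at 7.95, 5.68 and 6.64 CPM in controls and at 14.2, 16.3 and 9.32 CPM in heat, without overlap.

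The groups overlapped in the other 5 large subunit members. The helicase DDX21, which links RNA polymerase I transcription to processing, stood at 179, 273 and 245 CPM in controls and at 97.3, 93.9 and 216 CPM in heat. NOP16 stood at 8.01, 23.1 and 23.7 CPM in controls and at 6.33, 4.74 and 15.3 CPM in heat, where control 1 was near heat 1. The helicase DDX18 had 83.7 ± 9.46 against 64.6 ± 20.4 CPM (SD, n = 3), and RRP1B and RRS1 had 5.35 ± 1.38 against 7.05 ± 1.13 and 8.89 ± 0.921 against 9.29 ± 1.84 CPM.

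Which libraries entered the fit decided the calls. Without heat 3, edgeR called 7 members higher (NOC2L, NOLC1, NOP2, POLR1C, PPAN, RRP12 and RRP9) and 10 lower (DDX18, DDX21, LTV1, NCL, NOP58, NPM1, TSR1, UTP15, WDR12 and WDR43), against 18.4% and 17.7% of all genes tested in that fit. Without control 1 it called 4 higher (BOP1, NOLC1, POLR1A and RRP12) and 5 lower (LTV1, NOP58, TSR1, WDR12 and WDR43), against 19.6% and 12.3%. NOLC1, RRP12, LTV1, NOP58, TSR1, WDR12 and WDR43 were called in both fits. Without control 1 and heat 3 together, the fit rested on the near-identical libraries and called 11 members higher and 16 lower, against 41.2% and 38.4% of all genes. Without control 2 or control 3 it called 0 members and 0% of all genes. At an unadjusted p below 0.05 were 6 and 7 of 33 members, against 3165 of 15026 and 3303 of 15013 genes. Without heat 1 or heat 2 it again called 0 members, against 0.0475% and 0.0406% of all genes. Here 6 and 5 of 33 members had an unadjusted p below 0.05, against 3159 of 14752 and 3256 of 14771 genes. With each near-identical pair summed into 1 sample it called 0 members and 0.0129% of all genes. In that fit 0 of 33 members had an unadjusted p below 0.05, against 1692 of 15450 genes.

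**Figure D2:**
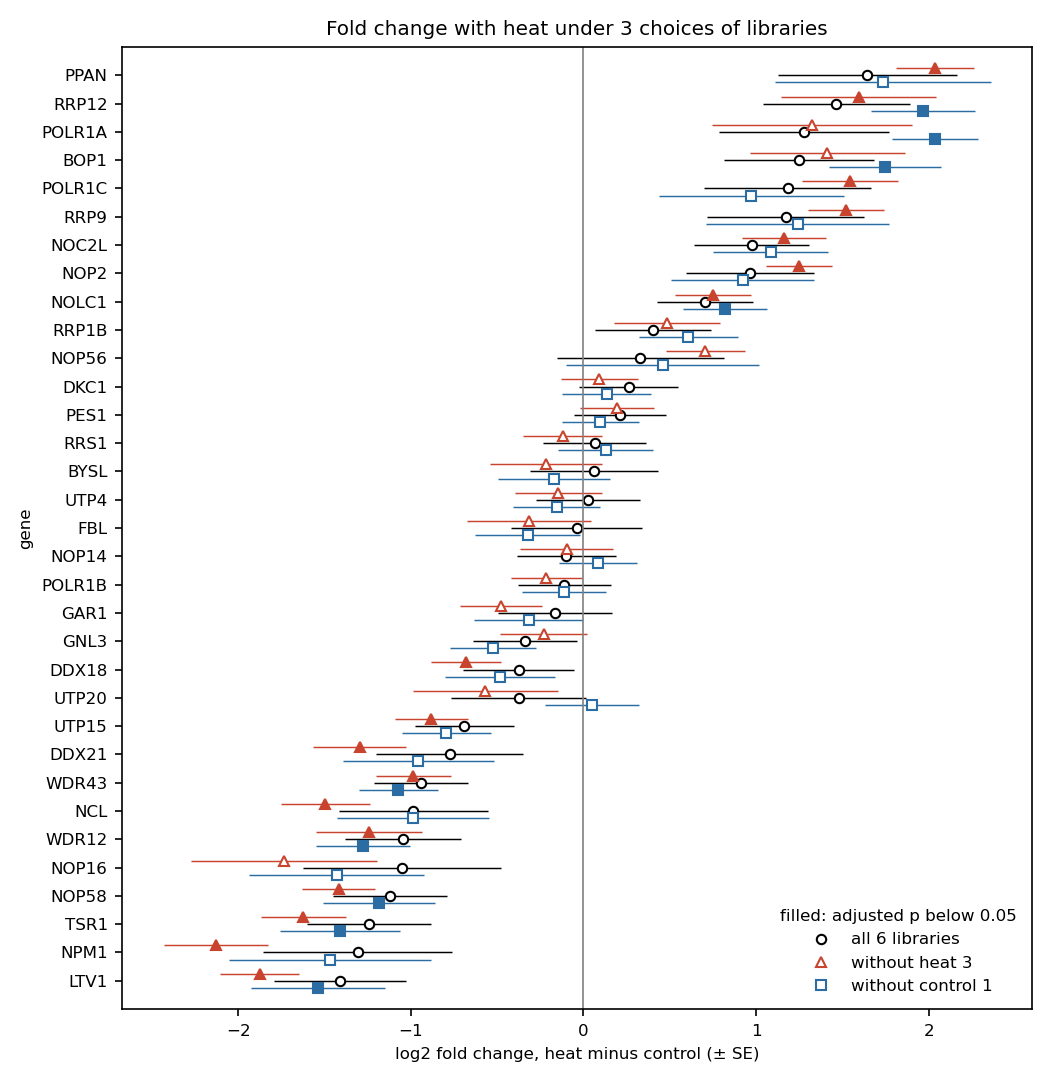
Log2 fold change, heat minus control, with its SE for the 33 genes in edgeR's test on all 6 libraries (black circles), without heat 3 (red triangles) and without control 1 (blue squares); filled symbols have an adjusted p below 0.05. No black symbol is filled, whereas 17 red and 9 blue symbols are, and the fold changes run from -1.41 for LTV1 to 1.64 for PPAN with all libraries.

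Heat 3 was set beside heat 1 and 2 to describe this spread. Its level was over 1.5 times their mean in 11 of 33 members and under their mean by the same factor in 7, against 30.1% and 31.1% of all genes with reads in each of these libraries. Control 1 lay beyond the same factor above the mean of control 2 and 3 in 5 members and below it in 5, against 28.7% and 29.3% of all genes. Heat 3 over control 1, the libraries standing apart, was above the same factor in 6 members (FBL, BYSL, NOP16, DKC1, UTP4 and GAR1, from 1.51 to 2.13 times) and below it in 4 (NOP56, UTP20, WDR43 and NOP58, from 0.389 to 0.656 times). These are 18.2% and 12.1% of the members, against 31.0% and 25.3% of all genes. LTV1 stood at 0.678 times, NPM1 at 0.933 times and PPAN at 0.929 times. These are single libraries, with no replicate check.

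Ratios of reads within a library do not depend on how libraries are scaled, so partner genes were compared in that way; the pairs were chosen after their values were seen and are not tested. The ratio of NOP56 to NOP58 reads was 0.424, 0.289 and 0.299 for controls 1 to 3. It reached 1.42 and 1.51 for heat 1 and heat 2 but was 0.251 for heat 3. Counting error was small beside this, with an exact 95% interval of 1.33 to 1.51 in heat 1 and of 0.235 to 0.269 in heat 3. Within the PeBoW complex, the ratio of BOP1 to WDR12 reads was 0.184, 0.0428 and 0.0519 in controls and 0.459, 0.525 and 0.226 in heat, so heat 3 and control 1 were close to each other, with exact intervals of 0.201 to 0.253 and 0.154 to 0.218. For BOP1 to PES1 the groups overlapped, with 0.395 in heat 3 below 0.494 in control 1. The ratio of POLR1A to POLR1B reads was 0.836, 0.242 and 0.320 in controls and 1.45, 1.29 and 0.999 in heat, all above the controls, but for POLR1C to POLR1B heat 3, at 0.164, lay within the controls, at 0.127 to 0.242. The ratio of DKC1 to GAR1 reads was at 1.24, 1.20 and 1.12 in controls and 1.82, 1.70 and 1.39 in heat. The exact intervals of control 1, 1.01 to 1.53, and heat 3, 1.24 to 1.55, overlapped. Such ratios also depend on transcript length and are no measure of subunit stoichiometry.

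**Figure D3:**
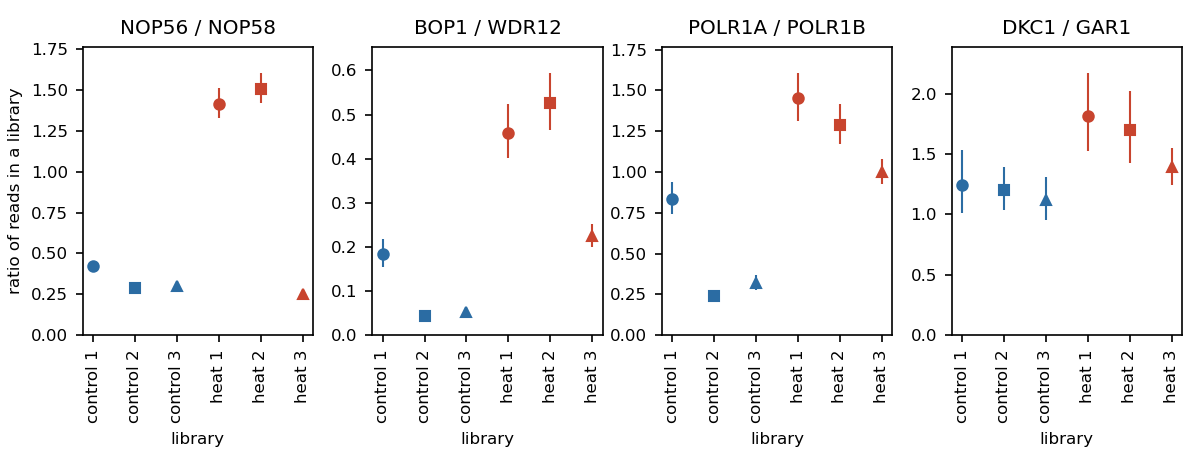
Ratio of reads between partner genes in each library (vertical axis, from 0), with exact 95% intervals that cover counting error only; blue symbols are controls and red symbols heat libraries. NOP56 to NOP58 is 1.42 and 1.51 in heat 1 and 2 but 0.251 in heat 3, while POLR1A to POLR1B is higher in all 3 heat libraries than in any control.

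Other factors of the pathway, 147 listed by function and 141 tested, gave 11 calls, or 7.8% against 11.0% of all tested genes. Of these, 5 rose and 6 fell, and 60 of 141 had a fold change above 0 (42.6%, against 52.1%), with a median of -0.26. Around RNA polymerase I, 1 of 15 rose and 1 fell. UBTF, the factor that keeps ribosomal genes open for transcription, rose from 33.5, 23.7 and 26.4 CPM in control 1, 2 and 3 to 234, 242 and 51.1 CPM in heat 1, 2 and 3 (2.66 ± 0.59, SE; edgeR adjusted p = 0.0384). TAF1D, a subunit of the promoter selectivity factor SL1, fell from 116, 139 and 149 CPM to 38.0, 34.6 and 43.0 CPM (-1.80 ± 0.29, edgeR adjusted p = 0.0276). For TAF1D all heat libraries were alike, whereas the level of UBTF in heat 3 was far below that in heat 1 and 2.

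Among 37 processome genes, 2 fell and none rose. ESF1 fell from 139.7, 151 and 147 CPM in control 1, 2 and 3 to 34.7, 37.4 and 44.6 CPM in heat 1, 2 and 3 (-1.91 ± 0.28, edgeR adjusted p = 0.0276). The GTPase BMS1 fell from 89.5, 96.8 and 80.9 CPM to 35.9, 34.9 and 46.6 CPM (edgeR adjusted p = 0.0416). For both genes the heat libraries were close together and far from the controls. Of 57 genes of 60S assembly and export, 3 rose and 2 fell. URB2 rose from 4.89 ± 0.600 to 16.3 ± 1.78 CPM (SD, n = 3), REXO4 from 3.00 ± 0.374 to 8.47 ± 2.34 CPM and the helicase DDX51 from 5.18 ± 0.725 to 20.3 ± 11.2 CPM, where heat 3 was at 7.33 CPM. SDAD1 fell from 52.8 ± 6.76 to 21.1 ± 2.01 CPM. RPF1, which the naming rule left out and which was added after its values were seen, fell from 29.4 ± 2.96 to 12.4 ± 3.55 CPM. Of 15 genes of the exosome and rRNA processing nucleases, the base methyltransferase RRP8 rose from 6.23 ± 1.95 to 18.6 ± 0.442 CPM and the exosome ring subunit EXOSC9 fell from 49.4 ± 4.68 to 21.2 ± 2.28 CPM. The edgeR adjusted p-values of these 7 genes lay between 0.0339 and 0.0484 for all but URB2, at 0.0276. Several of these calls were close to the threshold. DDX51 lost its call in 11 of 18 alternatives, among them RLE and upper-quartile factors (edgeR adjusted p = 0.0523 and 0.0515). BMS1, EXOSC9 and RPF1 lost theirs in 7 of 19, among them library totals (edgeR adjusted p = 0.0616, 0.0571 and 0.0730) and no filter (0.0701, 0.0529 and 0.0559). UBTF also lost its call in 7 of 19, among them limma on the authors' normalized values (limma adjusted p = 0.0557 and 0.0578 with pseudocounts of 1 and 0.5).

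None of 10 tested genes of snoRNP assembly and none of 7 of late 40S maturation passed. Their members with the highest mean, the box C/D core protein SNU13 and the kinase RIOK3, stood at 51.3 ± 19.2 against 41.9 ± 29.9 CPM and 228 ± 65.0 against 151 ± 84.6 CPM (SD, n = 3). Without heat 3 edgeR called 68 of the 141 genes (48.2%, against 36.1% of all genes). Without control 1 it called 40 (28.4%, against 31.9%), but it called 0 without control 2, control 3, heat 1 or heat 2.

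**Figure D4:**
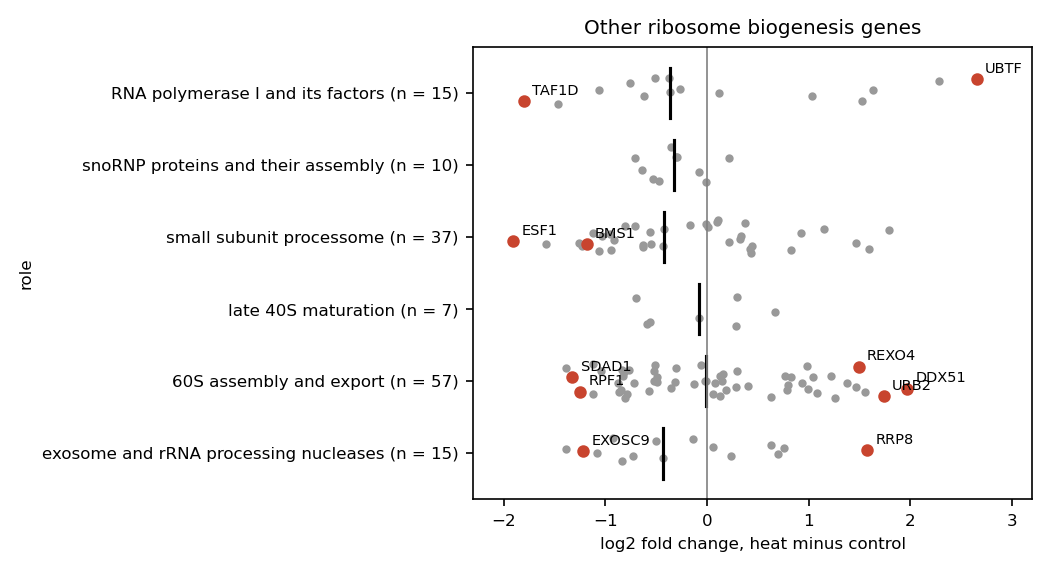
Log2 fold change, heat minus control, of 141 other ribosome biogenesis genes by role, with 1 point per gene (vertical position within a role is only spread for legibility) and a black bar at the median of each role. Red, named points passed edgeR's test over all genes: 5 rose, among them UBTF at 2.66, and 6 fell, among them ESF1 at -1.91.

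MYC, the transcription factor that drives many of these genes, stood at 26.9, 14.1 and 15.8 CPM in control 1, 2 and 3 against 34.5, 41.1 and 15.8 CPM after heat. Its fold change of 0.69 ± 0.44 missed the threshold (edgeR adjusted p = 0.295). Heat 1 and 2 were above the controls and heat 3 was level with control 3. MXD1, which competes with MYC for the partner protein MAX and was named after its values were seen, rose from 15.4, 16.7 and 18.6 CPM to 48.3, 60.3 and 50.0 CPM (1.65 ± 0.28, edgeR adjusted p = 0.0276), with all heat libraries alike. MXD1 lost its call without control 2, control 3, heat 1 or heat 2 and with near-identical libraries summed, as did the check gene HSP70.2. In these fits the log2 fold change of MXD1 lay between 1.55 and 1.71.

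Level and direction were related among the members. Across the 33 genes, mean log2 CPM and log2 fold change had a Spearman rho of -0.62 (Pearson r -0.61), against -0.53 (-0.50) over 134 of the other ribosome biogenesis genes and -0.25 (-0.23) over 10553 tested genes with a RefSeq span. These are relations across genes that share the same 6 libraries, and genes are not independent replicates. The 8 members with every heat library below the controls had a median of 5.78 log2 CPM, and the 5 above had a median of 3.33. Genomic span was less related to the fold change, with a rho of -0.21 over the members and -0.17 over all.

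On Sscrofa11.1, with positions from RefSeq genes matched by symbol, LTV1 lies on chromosome 1 at 21406949 to 21430252, NOP58 on chromosome 15 at 105893589 to 105930458, NPM1 on chromosome 16 at 52767263 to 52781862 and NCL on chromosome 15 at 132163453 to 132174214. NOP56 lies on chromosome 17 at 32960099 to 32965396, POLR1A on chromosome 3 at 58670377 to 58750441, RRP12 on chromosome 14 at 108772172 to 108805513 and PPAN on chromosome 2 at 68958906 to 68962657. Counts are per gene, so exons and introns are not told apart here. Some members overlap other genes, and although the libraries were stranded per the labels, the setting used for counting was not stated, so these reads are uncertain. NOC2L (chromosome 6 at 63307703 to 63320799) shares 529 bases with SAMD11, which stood at 1.60, 0.306 and 0.198 CPM in controls and at 22.7, 23.6 and 6.94 CPM in heat. TSR1 (chromosome 12 at 48404306 to 48417622) shares 3612 bases with SRR and 849 with SGSM2, and LTV1 shares 6849 bases with ZC2HC1B. BOP1 (chromosome 4 at 486562 to 507141) lies 78 bases from HSF1, the main heat shock transcription factor, which was at 5.74, 1.88 and 4.41 CPM in controls and at 11.5, 10.9 and 10.5 CPM in heat (edgeR adjusted p = 0.0649). On the other side MROH1 lies 81 bases away, at 9.28, 4.80 and 5.45 CPM in controls. It was called, at 16.7, 18.3 and 14.9 CPM in heat (edgeR adjusted p = 0.0472). A link between BOP1 and these neighbours was not tested.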

How the data were processed

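Counts were deposited by the authors as raw reads per Ensembl gene, and per the submitters' processing notes their tools were FastQC 0.11.4, Trim Galore and STAR, with Sscrofa11.1 as build; the counting tool and annotation are unknown (not given in the sources used here). A deposited normalized signal covers 13298 genes and is the authors' raw counts divided by 1 factor per library, with 100% of values returning to whole reads (tolerance 1e-06). Library totals lay between 18711440 and 29606378. Symbols came from a table of Ensembl identifiers (15623 matched), positions from RefSeq. Genes were kept by filterByExpr (minimum count 10) and tested two-sided with edgeR 4.0.16 in R 4.3.3 (quasi-likelihood, TMM, robust), with Benjamini-Hochberg adjustment over 14242 genes. Each SE was derived from the fold change and its F statistic, and biological variation was 43.6% (common CV). The test was checked on simulated data. All 36 members could be named; of other pathway genes, up to 4 called per role, or the 1 with the highest mean; MYC, RPL5, RPL11, MDM2 and HSP70.2 whatever their values; 1 further gene of that rule is not reported here. Members and lists were chosen with earlier results of these data known. Alternatives were other scalings, filters, thresholds and libraries, a replicate block, DESeq2 1.42.0 and limma 3.58.1; a fit to the recovered reads was added after seeing the data. Sequences were not used here, so a planned count of promoter motifs was not run.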

Additional observations from a re-analysis of the deposited data

How the results depend on the processing

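Of 33 members, 24 kept the sign of their fold change under all 19 alternatives in which they were fitted, and 9 did not; of 20 other genes followed, all but SNU13 kept it. Other scalings called 1 member with RLE factors (LTV1, lower), or 3.03% against 11.0% of all genes. Upper-quartile factors called 3, all lower (9.09%, against 11.4%), and library totals called RRP12 and BOP1, both higher (6.06%, against 14.0%). These shares of all genes count both directions. With RLE factors, upper-quartile factors and library totals, 52.7%, 57.6% and 79.2% of the calls among all genes were higher in heat. Without a filter 3 of 33 members and 2457 of 25766 genes were called. With at least 10 CPM in 3 samples only 27 members were tested, and 3 of 27 members and 928 of 7649 genes were called. DESeq2 called 8 members (24.2%), 32 other pathway genes (22.7%) and 3817 genes (21.5%), and limma-voom 2 members (6.06%, against 11.0% of all genes). Limma on the deposited signal called 1 member with a pseudocount of 1 or 0.5 (3.03%, against 12.1% and 11.4%). On the recovered reads edgeR called 1 member and 1673 genes (3.03% and 12.6%). An adjusted p below 0.10 gave 9 of 33 members, 36 of 141 others and 3561 of 14242 genes. One below 0.01 gave 0 others and 10 genes. Leaving out 1 library gave 0 to 17 members, 0 to 68 others and 0 to 5530 genes, with the highest counts without heat 3 (51.5%, 48.2% and 36.1%). Without control 1 and heat 3 together, 27 members (81.8%), 115 others (81.6%) and 12142 genes (79.6%) were called, and with near-identical libraries summed 0 others and 2 genes. The cause of these differences was not tested.

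The labels do not say that equal replicate numbers pair the samples, so the main fit does not pair them. Deviations of same-numbered libraries from their group means correlated at 0.30, -0.23 and 0.22. With 3 libraries per group and control 1 and heat 3 standing apart, these correlations cannot show whether the samples are paired. With the replicate number as a block, 8 members (24.2%), 29 others (20.6%) and 3404 genes (23.9%) were called.

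The log2 fold changes whose sign turned were UTP4 with RLE factors (-0.0308), DESeq2 (-0.0318) and without control 1 and heat 3 (-0.31, called at edgeR adjusted p = 0.0333), BYSL with RLE factors (-0.000132) and without control 1 and heat 3 (-0.42, called at 0.0383), and FBL, POLR1B and NOP14 with library totals (0.0422, 0.0186 and 0.0485) and at 10 CPM (0.0625, 0.0134 and 0.0370). Without control 1 and heat 3, DKC1 was at -0.0166, NOP14 at 0.10 and RRS1 at -0.0389. With near-identical libraries summed, FBL was at 0.18, NOP56 at -0.0185 and SNU13 at 0.10. Leaving out 1 library, FBL ran from -0.32 to 0.12, NOP14 from -0.24 to 0.0840, UTP4 from -0.16 to 0.12, UTP20 from -0.63 to 0.0518, BYSL from -0.22 to 0.21, RRS1 from -0.12 to 0.18 and SNU13 from -1.07 to 0.00496.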

Other observations

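Genes whose proteins act in the response to stalled ribosome assembly were read from the same fit. The values are transcript levels and do not measure binding between these proteins. Free RPL5 and RPL11, which with 5S ribosomal RNA bind and inhibit the ubiquitin ligase MDM2 when assembly stalls, were the ribosomal proteins named for this. RPL5 stood at 348, 792 and 820.4 CPM in control 1, 2 and 3 and at 165, 155 and 589.8 CPM in heat 1, 2 and 3, and RPL11 at 117, 407 and 457 CPM and at 111, 97.1 and 346 CPM. For both genes heat 3 was nearer to control 2 and 3 than heat 1 and 2 were, and neither passed (edgeR adjusted p = 0.248 and 0.404). MDM2 stood at 115, 144 and 149 CPM in controls and at 11.6, 13.8 and 56.6 CPM in heat, every heat library below the controls, with a log2 fold change of -2.31 ± 0.63 (SE, n = 3 per group) that missed the threshold (edgeR adjusted p = 0.0538). It was called in 12 of 19 alternatives, among them RLE factors, upper-quartile factors and no filter (edgeR adjusted p = 0.0473, 0.0434 and 0.0213). It was not called with library totals or on the recovered reads (edgeR adjusted p = 0.0607 and 0.0501). Nor was it called without control 2, control 3, heat 1 or heat 2, or with near-identical libraries summed.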
